A study of Mus musculus with 8 samples.

Results

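Mouse chromosome 6 was followed in Hi-C contact maps of mouse embryonic stem cells (mESCs) that had received an antisense morpholino oligonucleotide (AMO) against the LINE1 (L1) repeat RNA or a scrambled one. The chromosome spans 300 bins of 500 kb in mm9, and 293 of them were kept after 7 bins with under 0.1 of its median coverage in any sample were dropped, the first 3 Mb and the last bin. These are 293 of the 5093 bins kept over 19 autosomes and chromosome X, out of 5322 in all. All 4 samples were mESCs nucleofected with 1 of these oligonucleotides, sorted for nucleofected cells at 12 h and harvested at 36 h. There were 2 samples with SCR AMO, the scrambled control, and 2 with L1 AMO. The labels give no cell line or strain for these samples, and the study calls the 2 samples of a group independent experiments.

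Hi-C counts how often a pair of chromosomal regions is ligated to each other, which reports how close they lie in the nucleus. Along a chromosome, stretches of open, gene-rich chromatin (compartment A) alternate with stretches of compact chromatin (compartment B), and each kind contacts its own kind more often than the other. In mouse cells A is rich in short B1 repeats and B is rich in L1 repeats, a family of retrotransposons whose RNA is abundant in embryonic stem cells.

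The treatment rests on a pair of oligonucleotides of 25 bases each, shown because they are the difference between the groups. They are written 5′ to 3′ with no letters in capitals.
L1 AMO: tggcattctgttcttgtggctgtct
SCR AMO: cctcttacctcagttacaatttata
The oligonucleotides also differ in base composition. G and C make up 48% of L1 AMO and 32% of SCR AMO.

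The maps held 112381720 and 22252054 contacts in SCR AMO replicates 1 and 2, and 58030519 and 46263849 in L1 AMO replicates 1 and 2. Within chromosome 6 there were 4799786 and 944070 contacts in SCR AMO and 2693315 and 2198814 in L1 AMO. Replicates of one group differed beyond counting error in some values summed over the chromosome, such as the L1 AMO shares of contacts with other chromosomes, 25.9% and 23.8%. In single pairs of bins they differed by little more than counting noise. Over pairs of chromosome 6 bins the chi-square per degree of freedom was 1.09 for the SCR AMO pair and 1.15 for the L1 AMO pair. It was 0.988 and 0.961 between the 2 matrices deposited for each L1 AMO sample, which were therefore added and counted as 1 sample. The totals of the deposited SCR AMO matrices depart from the study's own summary of valid pairs, replicate 1 lying above it and replicate 2 below, whereas those of L1 AMO are close to it. Any difference in the making of the matrices and the treatment itself cannot be told apart. With 2 samples against 2, the smallest p of a two-sided exact permutation test is 0.333, so that no single value could pass 0.05.

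Before any comparison of compartments, a 19-Mb stretch of chromosome 6 stood apart between the groups. It was found after the maps were seen, as the run of at least 5 neighbouring bins in which coverage relative to the chromosome's median differed between the groups, L1 AMO lying above SCR AMO in every pairing of samples by more than 0.4 on the log2 scale. The run held 38 bins, from 64.5 to 83.5 Mb, and none was found on the other 19 chromosomes. The median coverage of its bins was 0.483 and 0.496 of the chromosome's median in SCR AMO, and 0.898 and 0.927 in L1 AMO. The other 253 bins, with the bin on either side of the run set aside, had medians of 1.08 and 1.07 in SCR AMO and 1.03 and 1.01 in L1 AMO. The groups therefore differed by a log2 ratio of 0.90 inside the stretch and −0.07 outside it. Contacts with other chromosomes showed the same step, with medians of 0.415 and 0.432 against 0.758 and 0.809, here relative to the median of the kept bins of all chromosomes. Contacts inside single bins of the stretch, on that same scale, showed it too, with 0.442 and 0.452 against 0.792 and 0.799. The stretch covers 29 B bins and 9 A bins, so the step did not follow the compartments.

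Contacts also joined the outer edges of this stretch, but in the SCR AMO samples only. The bin just before it, 64.0 to 64.5 Mb, and the bin just after it, 83.5 to 84.0 Mb, are 19.5 Mb apart. They shared 453 and 80 contacts in SCR AMO, against 9 and 17 in L1 AMO. That is 10.4 and 9.91 times the mean at this distance in SCR AMO, and 0.401 and 0.914 times in L1 AMO. Among 14550 pairs of bins 10 to 40 Mb apart, this pair ranked 1 in both SCR AMO maps, and 13893 and 7691 in those of L1 AMO. In SCR AMO its count was nearest to the mean of bins 2 Mb apart. The signal ended sharply on the inner side, since the same bin before the stretch shared 6 and 2 contacts with the last bin inside it. Over the 4 Mb outside each edge, the raw count was 2.12 and 2.03 times the mean at those distances in SCR AMO and 0.517 and 0.573 times in L1 AMO.

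**Figure D1:**
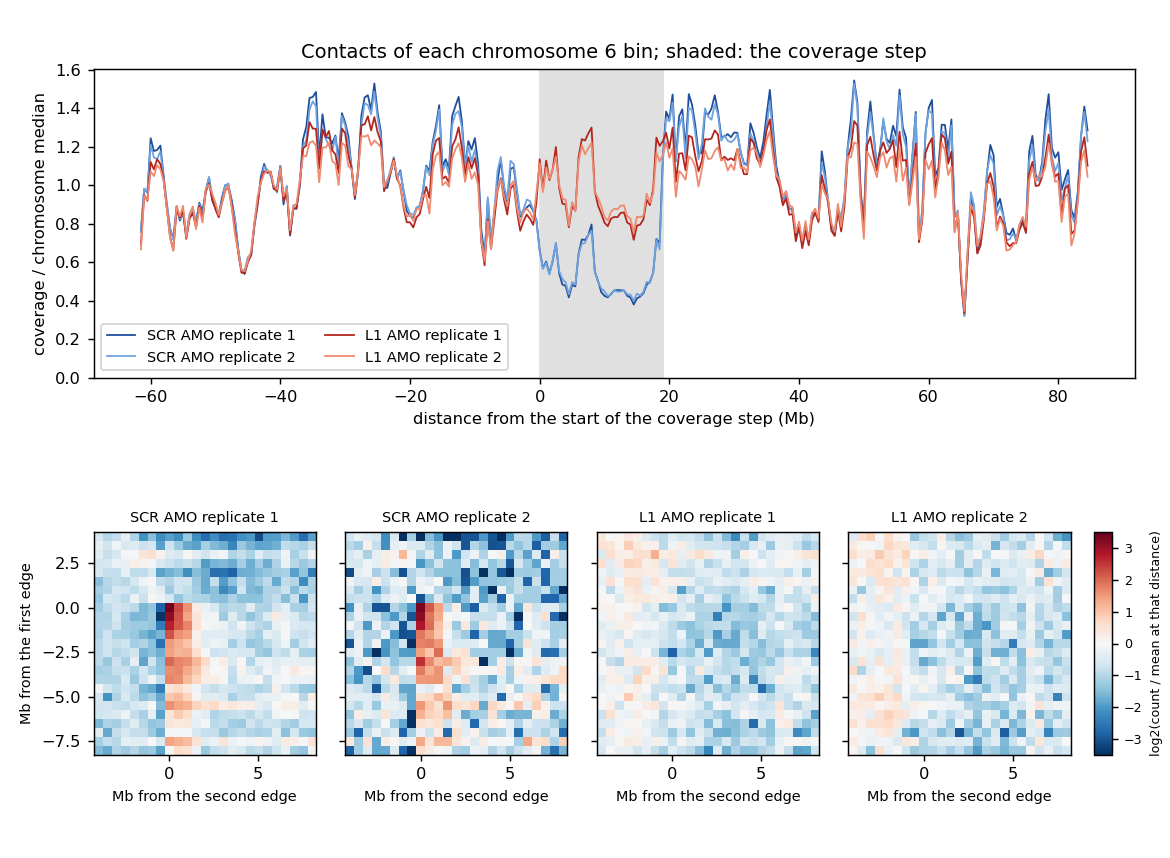
Coverage along chromosome 6 and contacts around the edges of the coverage step. Top, contacts of each 500-kb bin divided by the chromosome's median, 1 line per sample, against distance from the start of the step (Mb); inside the shaded 19 Mb both SCR AMO lines lie below both L1 AMO lines. Bottom, 1 map per sample of the log2 ratio of the count to the mean at the same distance, for bins around the first edge (vertical) and around the second edge (horizontal), in Mb from each edge; a patch of high counts ends at the edges in both SCR AMO maps and is missing from both L1 AMO maps.

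Whether the groups came from the same line or subclone of mESCs is not given in the sources used here. A difference in DNA between the groups cannot be told apart from the treatment, since each group holds 2 samples with the same pattern, and this bears on every comparison of SCR AMO with L1 AMO that follows. At the level of whole chromosomes, the share of all contacts that fell on chromosome 6 was alike, 5.44% and 5.45% in SCR AMO and 5.48% and 5.52% in L1 AMO. Chromosomes 1 and 14 did differ, with 7.48% and 7.51% against 10.2% and 10.4% for chromosome 1, and 4.13% and 4.14% against 5.45% and 5.52% for chromosome 14. Each result is therefore given with all kept bins and, where it moved, in either or both of a pair of alternatives chosen after the data were seen. In the first, the 40 bins from 64 to 84 Mb, 13.7% of the kept bins, were left out. In the second, pairs of bins on opposite sides of the stretch were left out as well, so that each side was measured on its own, and these values are called by side.

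Compartments were drawn from eigenvector 1 of the correlation matrix of balanced observed/expected maps, a bin-by-bin score whose sign separates A from B. Chromosome 6 fell into 22 alternating blocks, 11 A blocks over 65 Mb and 11 B blocks over 81.5 Mb. The median length was 4 Mb for A blocks and 5.5 Mb for B blocks. The longest B blocks were block 3 at 6.5 to 28.5 Mb, block 9 at 55.5 to 70.5 Mb and block 15 at 101 to 112.5 Mb. The longest A blocks were block 12 at 82 to 95 Mb, block 16 at 112.5 to 121.5 Mb and block 8 at 47 to 55.5 Mb. The chromosome opened with block 1, a B block at 3 to 4.5 Mb, and ended with block 22, an A block at 142.5 to 149.5 Mb. The coverage step lies over parts of block 9, an A block from 70.5 to 73.5 Mb (block 10), a B block from 73.5 to 82 Mb (block 11) and the start of block 12.

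The pattern of blocks was kept after L1 AMO. Eigenvector 1 drawn from each sample alone correlated between samples with r from 0.970 to 0.994 over 293 bins, which share neighbours and base composition and are given as a description. With 40 bins left out, r between the old and the redrawn eigenvector was 0.999 and 2 bins changed sign. In all, 11 of 293 bins had one sign in both SCR AMO samples and the other in both L1 AMO samples, where 5.32% of the kept bins of all chromosomes did so. Of these, 10 went from A to B. They start at 6.5, 7.5, 8, 22 and 23 Mb in block 3, and at 98, 108.5, 122, 137.5 and 143.5 Mb in 5 other blocks. The bin at 73 Mb went from B to A and lies inside the coverage step. All were near 0 in eigenvector 1 of the mean map, which follows from picking bins with opposite signs in the groups. In single samples the bin at 7.5 Mb had 0.318 and 0.332 in SCR AMO and −0.371 and −0.419 in L1 AMO. The bin at 22 Mb had 0.0215 and 0.0399 against −0.191 and −0.318. None marks a whole block that changed compartment.

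The share of contacts by distance showed a gain at intermediate range. Within chromosome 6, contacts 2 to 10 Mb apart made up 10.2% and 9.46% of the balanced frequency in SCR AMO and 12.0% and 12.0% in L1 AMO. The difference of 2.16 points (exact permutation p = 0.333) exceeded the SD of either group, 0.547 and 0.0327 (n = 2), and was 1.89 points by side. Contacts beyond 10 Mb made up 19.5% and 18.1% in SCR AMO and 17.4% and 16.9% in L1 AMO, a difference of −1.59 points that became −1.01 by side and −2.75 without the stretch alone. The groups overlapped for contacts within 2 Mb, those inside single bins included, at 70.3% and 72.5% against 70.5% and 71.1%. Between different bins up to 2 Mb apart the share was lower in both L1 AMO samples, at 34.2% and 32.9% against 32.5% and 31.4%. On a finer scale the log2 ratio of frequencies, L1 AMO over SCR AMO, was −0.14 for neighbouring bins, rose to 0.36 at 3 to 4 Mb, was 0.03 at 10 to 15 Mb and fell to −0.63 at 80 to 100 Mb.

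Contacts with other chromosomes took a smaller share after L1 AMO. They were 35.1% and 35.9% of the contacts of chromosome 6 in SCR AMO and 25.9% and 23.8% in L1 AMO, and the widest 95% Wilson interval of these shares was 0.155 points, which covers counting error only. The groups do not overlap (difference −10.6 points, exact permutation p = 0.333). Per bin, A bins had 1.74 and 1.60 times the coverage of B bins in such contacts in SCR AMO and 1.45 and 1.29 times in L1 AMO. Without the stretch these ratios were 1.66 and 1.52 against 1.43 and 1.29.

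Compartment strength compares the 20% of bins that rank highest in eigenvector 1 with the 20% that rank lowest, as the mean of A-A and B-B observed/expected frequency over that of A-B. A-A frequency was 1.70 and 1.71 in SCR AMO and 1.49 and 1.45 in L1 AMO. B-B frequency was 1.36 and 1.39 in SCR AMO and 1.30 and 1.31 in L1 AMO. A-B frequency was 0.489 and 0.487 in SCR AMO and 0.576 and 0.598 in L1 AMO. Both kinds of like contact were thus lower, and contact between unlike ends higher, in both L1 AMO samples. Strength was 3.13 and 3.19 in SCR AMO and 2.42 and 2.32 in L1 AMO, a change of −25.1% (difference −0.794, SD 0.0373 and 0.0719, n = 2 each, exact permutation p = 0.333).

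The difference in strength stayed when the coverage step was left out, at −0.768 without the 40 bins and −1.06 by side. Without the stretch strength was 3.14 and 3.23 against 2.47 and 2.36, and by side it was 3.09 and 3.17 against 2.12 and 2.02. By side, A-A frequency was 1.37 and 1.40 against 1.22 and 1.20, B-B frequency 1.45 and 1.48 against 1.32 and 1.31, and A-B frequency 0.456 and 0.454 against 0.600 and 0.621. The B-B difference was the least firm of the 3, since with all kept bins it changed sign in unbalanced maps, in corners of 50% and in 1-Mb bins. Among the 19 autosomes, the percent change of chromosome 6 with all kept bins, −25.1%, ranked 14, counted from the largest fall. Its values without the stretch or by side were not ranked.

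The same corner bins were then read in their contacts with the 18 other autosomes, a readout that did not draw the blocks. Strength there was 2.33 and 2.07 in SCR AMO and 2.20 and 2.07 in L1 AMO, and the groups overlapped. A-A frequency between chromosomes was 2.04 and 1.92 against 1.87 and 1.73, lower in both L1 AMO samples. B-B frequency was 0.960 and 0.969 against 1.03 and 1.08, higher in both. The opposite moves of A-A and B-B gave a strength that changed sign when SCR AMO replicate 1 or L1 AMO replicate 2 was left out.

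Each block was given a score, the log2 ratio of its mean frequency with A corner bins to that with B corner bins. In contacts within chromosome 6 the score was lower in both L1 AMO samples in all 11 A blocks, where 96.3% of the A blocks of all chromosomes did so, and the median difference was −0.44. By side the 10 A blocks left were also lower. Block 16 had a score of 1.55 and 1.58 in SCR AMO and 1.15 and 1.10 in L1 AMO. Block 8 had 1.55 and 1.58 against 1.11 and 1.02, and block 12 had 1.48 and 1.45 against 1.02 and 0.928. These long A blocks stayed clearly on the A side. Block 22, at the far end, had 0.954 and 0.961 against 0.618 and 0.517.

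B blocks went in both directions. In 5 of 11 the score was higher after L1 AMO, that is nearer to 0, where 45.7% of all B blocks were higher. In another 5 it was lower, where 33.3% of all B blocks were lower, and block 21 overlapped. The blocks that moved toward 0 had started far below it. Block 15 had −1.24 and −1.32 in SCR AMO and −0.972 and −0.941 in L1 AMO, and block 19, at 128.5 to 134 Mb, had −1.53 and −1.41 against −1.12 and −1.13. Block 9 had −1.01 and −1.0 against −0.895 and −0.873. The blocks that moved down were those nearest to 0, such as block 1, with −0.0811 and 0.0844 against −0.539 and −0.469. Block 13, at 95 to 97 Mb, had −0.259 and −0.272 against −0.488 and −0.488. Block 3, the longest, had −0.706 and −0.745 against −0.829 and −0.791, but by side it was higher, with −0.895 and −0.913 against −0.803 and −0.782. By side, 7 B blocks were higher and 3 lower, the 3 being the short blocks 1, 5 and 13.

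Scores from contacts with other autosomes were lower in A and B blocks alike. The score was lower in both L1 AMO samples in 16 of 22 blocks and higher in 0, where 78.6% of the blocks of all chromosomes were lower, and without the stretch it was lower in 15 of 20. In 3 short B blocks the sign changed. Block 1 had 0.248 and 0.20 in SCR AMO and −0.0217 and −0.182 in L1 AMO. Block 13 had 0.188 and 0.243 against −0.155 and −0.127, and block 17, at 121.5 to 124.5 Mb, had 0.154 and 0.0945 against −0.233 and −0.254. These blocks contacted A of other autosomes more than B in SCR AMO and less in L1 AMO. The long A blocks 12, 16 and 8 overlapped between the groups in this readout, block 12 having 1.48 and 1.30 against 1.37 and 1.23.

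**Figure D2:**
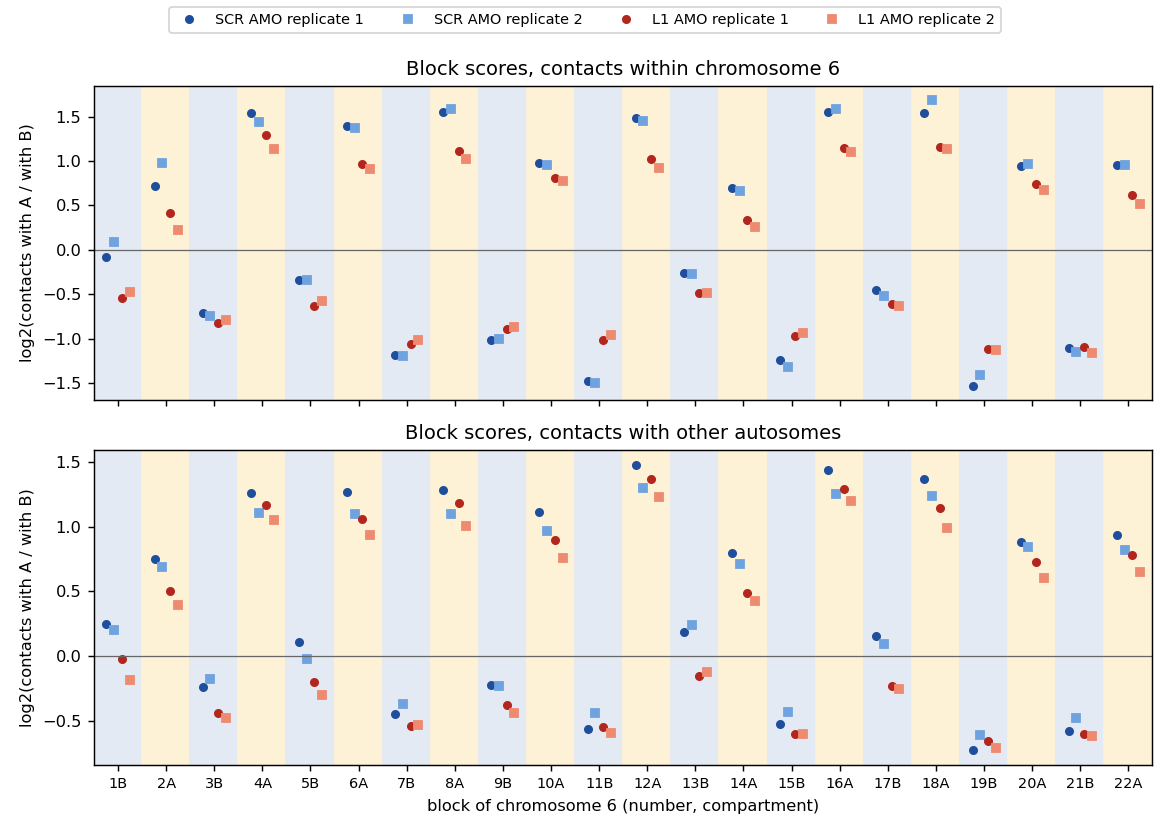
Scores of the 22 blocks of chromosome 6, in contacts within the chromosome (top) and with other autosomes (bottom). Each point is 1 sample, the vertical axis is the log2 ratio of contacts with A to contacts with B, and yellow and blue bands mark A and B blocks. At the top every A block is lower in both L1 AMO samples, whereas strong B blocks such as 15 and 19 are nearer to 0. Block 11 is nearer to 0 too, but lies inside the coverage step, which cannot be told apart from a change of compartments. At the bottom blocks 1, 13 and 17 cross 0.

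Contacts of A blocks with other A blocks, as balanced observed/expected frequency, were lower in both L1 AMO samples in 10 of 11 blocks, where 95.1% of A blocks did so over all chromosomes. The exception was block 10, inside the coverage step. Block 8 had 1.62 and 1.63 in SCR AMO and 1.40 and 1.36 in L1 AMO. Block 12 had 1.41 and 1.42 against 1.22 and 1.19. By side, 9 of 10 A blocks were lower and block 22 overlapped, with 1.26 and 1.28 against 1.27 and 1.28. Without the stretch alone, block 22 was higher, with 1.41 and 1.43 against 1.45 and 1.44. Contacts of B blocks with other B blocks were higher in 8 of 11, where 65.4% of B blocks were, but by side 4 were higher and 6 lower. Block 15 was lower in both forms, with 1.25 and 1.26 against 1.19 and 1.16 for all kept bins and 1.40 and 1.42 against 1.31 and 1.29 by side.

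Contacts with the blocks directly before and after, which are of the other compartment, were higher after L1 AMO in 19 of 22 blocks, where 74.3% of all blocks were, and by side in 18 of 20. Block 16 had 0.635 and 0.629 in SCR AMO and 0.722 and 0.738 in L1 AMO. Block 18, an A block at 124.5 to 128.5 Mb, had 0.594 and 0.602 against 0.712 and 0.724. The step entered the largest of these differences, block 12 with 0.509 and 0.505 against 0.714 and 0.723, which by side was 0.732 and 0.734 against 0.792 and 0.790. Raw counts of neighbouring blocks at matched distance, tested per pair with edgeR, gave a different picture from these balanced means. Of 21 neighbouring pairs 6 rose and 7 fell, with a median log2 ratio of −0.05, and by side 5 of 18 rose and 0 fell, with a median of 0.05. Among A-B pairs of all chromosomes, at any distance, 17.8% rose and 274 of 3188 fell, and 18.0% rose in the fit by side. The share among neighbouring pairs alone was not counted. The largest falls among neighbours, blocks 7 and 8 (−0.14), 12 and 13 (−0.12) and 19 and 20 (−0.19), did not pass by side (−0.02, −0.03 and −0.08).

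**Figure D3:**
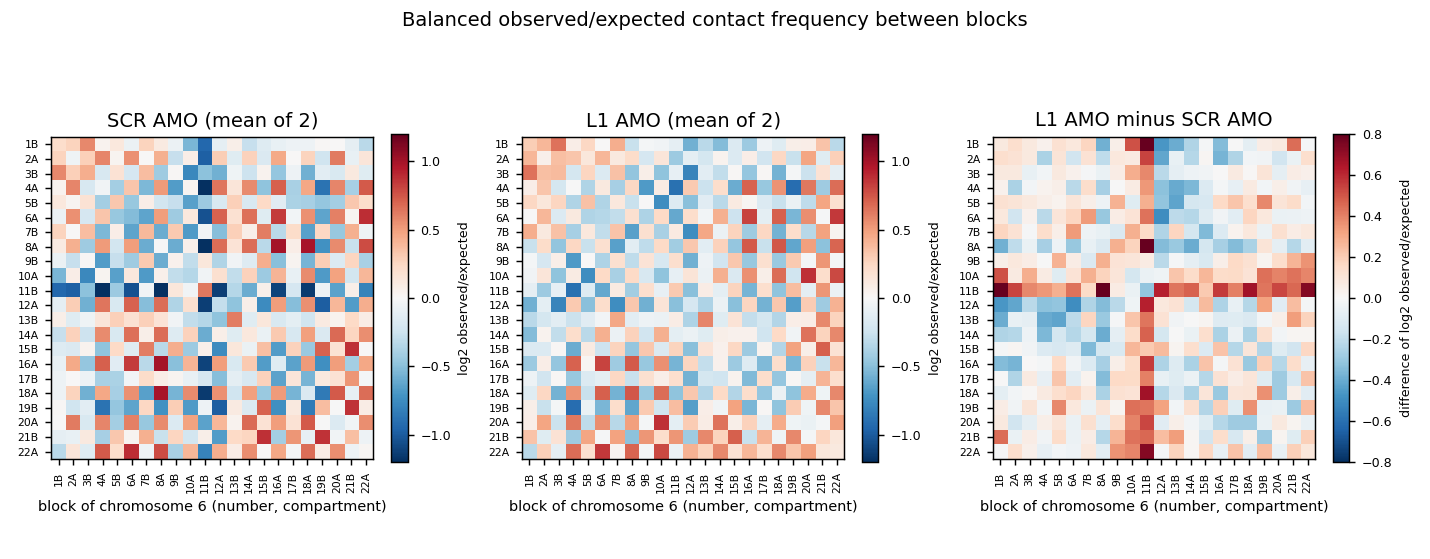
Mean balanced observed/expected frequency between the 22 blocks, as log2 values, in SCR AMO and L1 AMO (means of 2 samples each) and as the difference. Columns and rows are blocks in order along the chromosome, numbered and marked A or B. The checkerboard of like blocks is paler in L1 AMO, and the dark cross of block 11 in the difference lies in the coverage step.

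By distance, contacts between different A blocks differed most between the groups at 2 to 10 Mb. By side, A-A observed/expected frequency at 2 to 10 Mb was 1.29 and 1.29 in SCR AMO and 1.14 and 1.13 in L1 AMO, a log2 ratio of −0.18. At 10 to 40 Mb the log2 ratio was −0.14 and beyond 40 Mb it was −0.06, with no overlap between the groups. B-B frequency between blocks was 1.26 and 1.24 against 1.19 and 1.18 at 2 to 10 Mb (−0.07), 1.24 and 1.25 against 1.21 and 1.20 at 10 to 40 Mb (−0.05), and overlapped beyond 40 Mb. A-B frequency was higher in both L1 AMO samples at each distance, with 0.748 and 0.738 against 0.823 and 0.831 at 2 to 10 Mb (0.15), with 0.13 at 10 to 40 Mb and 0.07 beyond. Inside blocks, up to 2 Mb, A-A frequency was higher (0.889 and 0.896 against 0.938 and 0.942) and B-B frequency lower (1.19 and 1.19 against 1.14 and 1.13) in both L1 AMO samples. With all kept bins, A-A and A-B frequency between blocks kept these directions, but B-B frequency overlapped at 10 to 40 Mb. Beyond 40 Mb B-B was then higher in both L1 AMO samples, with 1.06 and 1.05 against 1.10 and 1.12 (0.07). Without the 40 bins it was higher there too (0.03). By side, 550 pairs of B bins were left beyond 40 Mb, against 7014 with all kept bins.

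**Figure D4:**
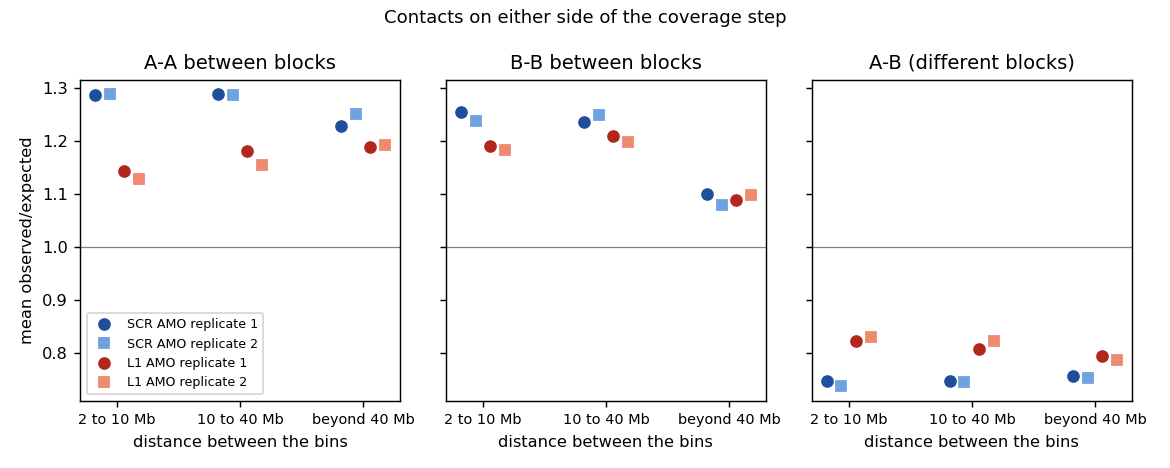
Mean observed/expected frequency between bins of different blocks on the same side of the coverage step, by the distance between the bins (Mb), for A-A, B-B and A-B. Each point is 1 sample, and a grey line marks 1. A-A points of L1 AMO lie below those of SCR AMO and A-B points above them at every distance, whereas B-B points overlap beyond 40 Mb.

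Counts summed over pairs of blocks allowed a test per pair. With edgeR's quasi-likelihood test, fitted to 6627 block pairs of all chromosomes with Benjamini-Hochberg adjustment at 0.05, the counts of 179 of the 253 block pairs of chromosome 6 changed, 81 rising and 98 falling. Over all chromosomes 48.2% of pairs changed. The split depended on scaling, since with library totals in place of TMM 50 rose and 117 fell, with the median of all pairs shifted to −0.18. When counts were set against those expected at the same distances, 150 changed, 60 rising and 90 falling, where 35.3% changed over all chromosomes. A fit to chromosome 6 alone gave 76 rising and 58 falling, and one with balancing factors in the expected counts 70 and 68.

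The coverage step shaped these counts. At matched distance, of the 82 pairs with a block mostly or partly in the stretch, 56 rose and 17 fell, while of the 171 others 4 rose and 73 fell. The largest rises were those of block 11, which lies inside it. Block 11 with block 12 held 12285 and 2288 contacts in SCR AMO and 15934 and 13133 in L1 AMO, which was 0.324 and 0.328 times the expected count against 0.706 and 0.717 times. Its log2 ratio was 1.11 (SE 0.0331, edgeR adjusted p = 3.5e-23). Block 8 with block 11 had a log2 ratio of 1.26 and block 1 with block 11 of 1.20. In these pairs a change of compartments cannot be told apart from the step in coverage, and the other named pairs with block 10 or 11, with log2 ratios from 0.56 to 1.18, are not described one by one.

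By side, 111 pairs remained and 49 changed, 25 rising and 24 falling, where 34.3% changed over all chromosomes. Sorted by compartment, A-A pairs fell in 16 of 21 and rose in 0, with 59.5% of A-A pairs falling over all chromosomes and a median log2 ratio of −0.19. A-B pairs rose in 18 of 50 and fell in 3, where 18.0% rose over all chromosomes. B-B pairs rose in 7 of 20 and fell in 3, where 32.4% rose. Pairs of a block with itself fell in 2 of 20, where 8.06% fell. Of pairs with centres more than 40 Mb apart, 4 of 32 A-A, 6 of 64 A-B and 3 of 33 B-B pairs remained by side. The shares over all chromosomes hold pairs at any distance, so they are not matched to these pairs in distance. With all kept bins, blocks in the stretch included, the counts differed. Of 55 A-A pairs 33 fell and 10 rose (60.1% fell over all chromosomes), and of 55 B-B pairs 17 rose and 9 fell (32.1% rose). Of 121 A-B pairs 30 rose and 31 fell (17.8% rose), and 17 of 22 blocks fell with themselves (11.7%). Most of these rises were pairs with a block in the stretch, where 28 A-B and 15 B-B pairs rose. With neither block in it, 2 of 81 A-B pairs rose and 24 fell, and 2 of 36 B-B pairs rose and 9 fell. Over all chromosomes, with all kept bins, 274 of 3188 A-B pairs and 51 of 1484 B-B pairs fell, and 14 of 1469 A-A pairs rose. With the 40 bins left out but pairs across kept, 21 of 100 A-B pairs rose and 12 fell, and 12 of 45 B-B pairs rose and 5 fell. The balance of rises and falls among A-B and B-B pairs thus depended on how the stretch was treated. Among A-A pairs falls outnumbered rises in each of these sets except the pairs with a block in the stretch, of which 10 rose and 9 fell. Of the 69 pairs called with all kept bins and also measured by side, 29 were called in the same direction by side and 2 in the opposite one, out of the 49. These fits take out distance but not the coverage of bins. With all kept bins and balancing factors in the expected counts, 41 A-B pairs rose and 23 fell. Pairs of like blocks then rose in 19 and fell in 39, and 10 blocks rose with themselves and 6 fell. The balance among A-B pairs thus depended on this setting as well.

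As a share of their kind, falls of A-A pairs were the most frequent change by side. Block 6, at 37 to 40.5 Mb, and block 8 have their centres 12.5 Mb apart. They shared 12735 and 2374 contacts in SCR AMO and 5283 and 4052 in L1 AMO, or 2.04 and 2.07 times the expected count against 1.50 and 1.42 times. The pair fell by 0.51 on the log2 scale (SE 0.039, edgeR adjusted p = 2.6e-12), and by 0.34 by side (edgeR adjusted p = 8.0e-09). As balanced observed/expected frequency with all kept bins, its log2 ratio was −0.31. A single B block, block 7 at 40.5 to 47 Mb, lies between them.

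A second group of such pairs lies toward the far end. Block 16 with block 18 held 1.88 and 1.91 times the expected count in SCR AMO and 1.42 and 1.31 times in L1 AMO, and fell by 0.50 on the log2 scale (SE 0.0368, edgeR adjusted p = 1.7e-12) or by 0.35 by side. Block 18 with block 20, an A block at 134 to 138 Mb, held 1.92 and 1.81 times against 1.46 and 1.30 times, and fell by 0.47 or by 0.32 by side. The long blocks 12 and 16, 28.5 Mb apart, shared 32124 and 5869 contacts in SCR AMO and 13353 and 10030 in L1 AMO, and fell by 0.43 or by 0.30 by side (edgeR adjusted p = 2.1e-09). As balanced frequency with all kept bins, the log2 ratios of these pairs, in the order named, were −0.30, −0.29 and −0.24. Block 12 with block 18, 38 Mb apart and named after its value was seen, fell by 0.40 or by 0.35 by side. By side, all 8 pairs of A blocks separated by a single B block fell, with a median log2 ratio of −0.25. Those separated by a single A block, B-B pairs, were split, with 3 rising and 3 falling of 8. In the fit by side, 59.5% of A-A pairs at any distance fell over all chromosomes and 32.4% of B-B pairs rose. The share among pairs with a single block between them was not counted, so neither count is read as particular to chromosome 6.

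Pairs across the stretch could not be measured by side, and leaving out the 40 bins moved their values in either direction. Block 6 with block 12 held 2.35 and 2.36 times the expected count in SCR AMO and 1.55 and 1.45 times in L1 AMO, and fell by 0.67 on the log2 scale, or by 0.49 without these bins. Block 8 with block 12 held 2.08 and 2.05 times against 1.53 and 1.40 times, and fell by 0.52 or by 0.41. Block 8 with block 14, at 97 to 101 Mb, fell by 0.57 or by 0.25 (edgeR adjusted p = 0.0001). In these A-A pairs a fall with smaller values was left. Leaving out the 40 bins does not remove the contacts that joined the edges in SCR AMO, so the falls cannot be told apart from these. By distance from the edges, balanced frequency across the stretch had a log2 ratio of −1.73 at 0 to 4 Mb and −0.17 at 4 to 10 Mb. It was −0.34 at 10 to 20 Mb and −0.05 at 20 to 40 Mb.

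Other falls across the stretch were lost without the 40 bins. Block 8 with block 16 held 2.60 and 2.59 times against 1.98 and 1.85 times and fell by 0.46, but its log2 ratio was then −0.07 (edgeR adjusted p = 0.16). The A-B pair of blocks 8 and 15 fell by 0.27 and then had 0.10 (edgeR adjusted p = 0.11). The B-B pair of blocks 7 and 15 fell by 0.41 and then had −0.01 (edgeR adjusted p = 0.84). The same was true of blocks 4 and 13 (−0.50, then −0.09) and of blocks 5 and 13 (−0.35, then 0.03).

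A pair of results with block 9 went the opposite way. The A-B pair of blocks 9 and 12, which lie on either side of the stretch and partly in it, held 0.752 and 0.760 times the expected count in SCR AMO and 0.688 and 0.695 times in L1 AMO. It fell by 0.15 on the log2 scale (edgeR adjusted p = 0.00033) and by 0.41 without the 40 bins (edgeR adjusted p = 1.6e-09). The B-B pair of blocks 9 and 15 had −0.01 (edgeR adjusted p = 0.86) and fell by 0.16 without them (edgeR adjusted p = 0.0015). What such a pair shows therefore depends on the bins used. Without the 40 bins, what is left of blocks 9 and 12 lies next to the outer edges of the stretch. Over the 4 Mb outside each edge, the raw count was 2.12 and 2.03 times the mean in SCR AMO and 0.517 and 0.573 times in L1 AMO. These 4 Mb include the bin next to each edge, which was left out. How far these contacts make up the fall of blocks 9 and 12 was not tested.

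Of the 4 A-B pairs of longest blocks that could be measured by side, 3 rose. Block 12 with block 15 held 0.650 and 0.649 times the expected count in SCR AMO and 0.718 and 0.742 times in L1 AMO. Its log2 ratio was 0.14 (SE 0.0334, edgeR adjusted p = 0.00086) with all kept bins and 0.28 by side (edgeR adjusted p = 4.8e-08). Block 15 with block 16, its direct neighbour, held 0.742 and 0.743 times against 0.779 and 0.786 times, which passed the test by side (0.19, edgeR adjusted p = 5.2e-06) and did not with all kept bins (0.05, edgeR adjusted p = 0.20). Block 8 with block 9 had a log2 ratio of 0.16 and of 0.10 by side, and passed in both. Block 3 with block 8 fell by 0.17 with all kept bins (edgeR adjusted p = 0.00018) and had 0.01 by side (edgeR adjusted p = 0.80). Without the 40 bins alone it passed as a rise of 0.09 (edgeR adjusted p = 0.042). Of the pairs across the stretch, block 3 with block 12 fell by 0.28, or by 0.16 without the 40 bins (edgeR adjusted p = 0.0037). Block 9 with block 16 rose by 0.11 and did not pass without them (0.04), and block 3 with block 16 passed in neither form (0.03 in both).

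Not every A-B pair rose. Block 1 with block 8 shared 1307 and 268 contacts in SCR AMO and 494 and 358 in L1 AMO, and fell by 0.47 on the log2 scale or by 0.33 by side (edgeR adjusted p = 0.00069). Without the 40 bins alone this pair had −0.15 and did not pass (edgeR adjusted p = 0.12). Block 17 with block 20 held 1.09 and 1.17 times the expected count against 0.815 and 0.831 times, and fell by 0.46 or by 0.28 by side. Block 8 with block 17, across the stretch, fell by 0.51, or by 0.21 without the 40 bins (edgeR adjusted p = 0.02). Blocks 1 and 17 are among the short B blocks that contacted A of other autosomes more than B in SCR AMO and less in L1 AMO.

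Among B-B pairs, block 19 with block 21, at 138 to 142.5 Mb, held 1.46 and 1.48 times the expected count in SCR AMO and 1.15 and 1.20 times in L1 AMO. It fell by 0.35 on the log2 scale (SE 0.0401, edgeR adjusted p = 2.2e-08) or by 0.20 by side. Block 3 with block 9 rose by 0.13 with all kept bins (edgeR adjusted p = 0.0015) and had −0.04 by side (edgeR adjusted p = 0.45). Block 3 with block 15, across the stretch, had 0.04 (edgeR adjusted p = 0.48).

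**Figure D5:**
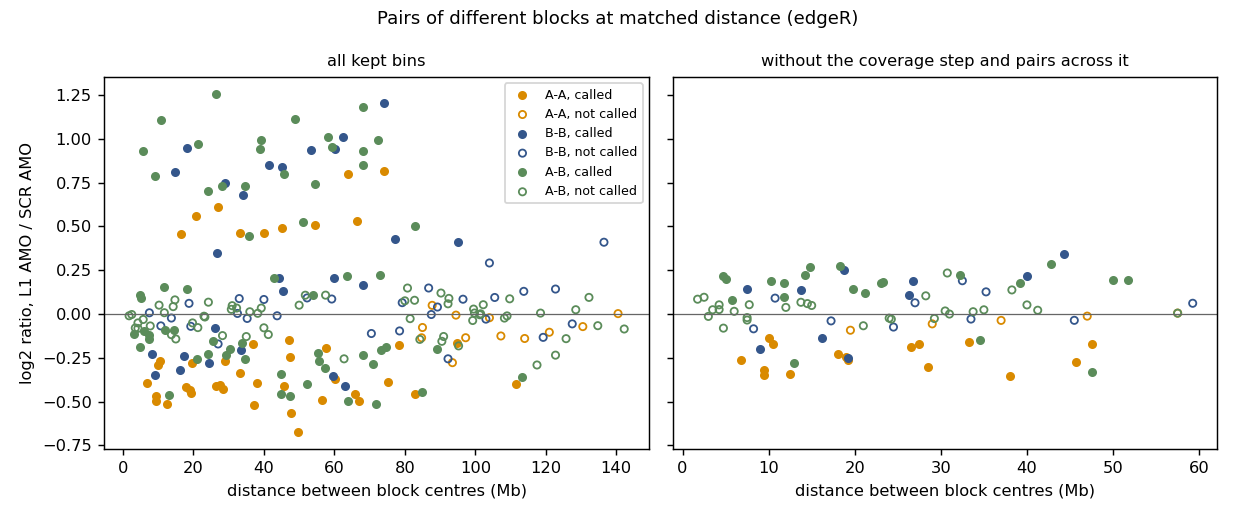
Log2 ratio (L1 AMO over SCR AMO) of each pair of different blocks at matched distance (edgeR), against the distance between block centres (Mb), with all kept bins (left) and by side of the coverage step (right). Filled points passed the test at an adjusted p of 0.05. The cloud of rises above 0.4 on the left is absent on the right, where A-A pairs (orange) lie below or at 0 and most called A-B pairs (green) above it.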

How the data were processed

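The deposited files hold raw counts of contacts per pair of 500-kb bins, which the authors made from Hi-C read pairs with HiC-Pro (2.7.1b in the submitters' processing notes, which also name CASAVA and mm9; the study's methods name another version). Mapping options and duplicate removal are not given in the sources used here. Bins were numbered over chromosomes 1 to 19, X, Y and M, and counts across either end of chromosome 6 reached at most 0.00313 of the level between adjacent bins. No column was left unassigned. The H3K9me3 samples were not analysed here, and no gene is named because no mm9 annotation was used.

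Kept bins of all chromosomes were balanced together. Observed/expected values used the mean of the chromosome at each distance. Eigenvector 1 of the mean map of the 4 samples gave the blocks, which hold at least 2 bins. Its sign followed the ratio of B1 to L1 repeats on chromosome 1 (r = 0.824 over bins) and, for chromosome 6, contacts with chromosome 1 (r of size 0.933). Block pairs with at least 10 counts on average were tested with edgeR 4.0.16 (quasi-likelihood, TMM, Benjamini-Hochberg adjustment), and single values by two-sided exact permutation tests. The text names, or gives as a range, the 3 longest A and B blocks, both end blocks, the pairs among the longest, and the called pairs, neighbouring pairs and next-neighbouring pairs with the largest changes; other blocks and pairs in the text were chosen after their values were seen. Blocks, lists and tests were chosen with earlier results of these data known.

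On simulated counts with 100 changed pairs at each size, the fit at matched distance called 68% of pairs changed by 0.25 and 87% of those changed by 0.5 on the log2 scale, with 5 unchanged pairs called. Alternatives were other balancing, single L1 AMO matrices, each sample left out, a replicate block, thinning, other limits, corners, eigenvectors and bins, DESeq2 1.42.0 and, added after the data were seen, those on the coverage step, balancing factors and chromosomes 1 and 14. Python 3.11.15 with numpy 2.4.6, scipy 1.17.1, pandas 2.3.3 and matplotlib 3.10.9, and R 4.3.3, were used.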

Additional observations from a re-analysis of the deposited data

How the results depend on the processing

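Of the values that answer a comparison, the fall of compartment strength, the fall of A-A and rise of A-B frequency, the gain at 2 to 10 Mb, and the falls beyond 10 Mb and of contacts with other chromosomes kept their direction under each alternative run. With each sample left out in turn, strength differed by −0.845 to −0.743 and the share within 2 Mb by −1.65 to 0.510 points, and strength in contacts with other autosomes by −0.190 to 0.0635. The share within 2 Mb also rose with a limit of 5 Mb (0.869), a coverage limit of 0.5 (0.257) and without the coverage step (0.722). B-B frequency rose without balancing (0.0736), in corners of 50% (0.0161) and in 1-Mb bins (0.0157). Block pairs called fell to 53 in total counts by side, and at matched distance to 74 without the step and 49 by side, where fewer pairs were tested. They ranged from 140 to 181 and from 105 to 164 with a sample left out, and DESeq2 called 158 and 121.

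At matched distance, log2 ratios changed sign without the step for blocks 3 and 8 (0.0868, and 0.0133 by side), 5 and 13 (0.0305) and 8 and 15 (0.0963), and by side for blocks 3 and 9 (−0.0358). With balancing factors they did so for blocks 3 and 15 (−0.0368), 7 and 8 (0.0232), 9 and 10 (−0.0648), 10 and 11 (−0.108), 12 and 13 (0.0659) and 19 and 20 (0.00244), and with thinning for blocks 3 and 16 (−0.00974). Blocks 9 and 15 ranged from −0.0350 to 0.0265 with a sample left out (0.0153 without SCR AMO replicate 2), and had 0.00570 with the first L1 AMO matrices, 0.00983 with thinning, 0.0143 without TMM and 0.0620 in chromosome 6 alone. The cause was not tested. Over all named pairs, 645 values kept direction and call, 35 lost the call and 7 gained it.

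A replicate block called 189 pairs in total counts and 159 at matched distance, and left the other values as they were, strength at −0.794. Deviations of samples with the same number correlated with r = 0.196 over all block pairs and 0.347 on chromosome 6. With 2 pairs the numbers are only shared. Depth was lowest in SCR AMO replicate 2, where 9.40% of pairs of chromosome 6 bins held no contact, and 500-kb bins do not resolve smaller domains.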
